A study of Homo sapiens with 10 samples.

Results

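Basement membranes are thin sheets of extracellular matrix under epithelia and around muscle, nerve and vessels. They are built from a polymer of laminins, which are heterotrimers of an alpha, a beta and a gamma chain, and a network of type IV collagen, whose chains also assemble in threes. In the prostate gland the sheet lies under the basal cells, and its make-up changes in prostate cancer. The genes described here are 9 collagen and laminin chains taken by name from a table of 13527 features: COL4A1, COL4A2, COL4A5, COL4A6, COL7A1, LAMA5, LAMB1, LAMC1 and LAMB3. All 9 have a row, found by gene symbol.

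The cells were DU145, an established line from human prostate cancer, and the assay was RNA-seq. One group carried a scrambled control hairpin (shCon, n = 3 libraries) and the other a hairpin that lowers SOX4, an HMG-box transcription factor (shSOX4, n = 3 libraries), both otherwise untreated and kept in medium with serum. How many hairpins and clones stand behind each group is not stated in the labels. The series asks whether lowering SOX4 holds back neuroendocrine transdifferentiation. Vector and oeSOX4 cells of the same line, with accessibility data only, are not analysed here.

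Libraries held 31189910 to 43361609 counts. SOX4 itself was 8.48 to 12.9 CPM (counts scaled to library size, with TMM factors) in shCon and 4.55 to 6.44 CPM in shSOX4. The groups did not overlap. SOX4 fell by 0.89 (log2, SE 0.236; edgeR, adjusted p = 0.0111), but leaving out shCon 1 gave -0.71 (edgeR, adjusted p = 0.0598). On the second principal component of log2 CPM, which held 15.7% of the variance, shCon 3 and shSOX4 1 stood apart from the other 4 libraries. Epithelial keratin genes were abundant in every library: KRT8 ranged from 1489.8 to 2264 CPM in shCon and from 4363 to 4744 CPM in shSOX4. Of 7 epithelial genes 6 had a row, and KRT8 and KRT18 rose while EPCAM and CDH1 fell. The EPCAM call did not hold without shCon 2 (-0.52; edgeR, adjusted p = 0.179), without shSOX4 2 (edgeR, 0.0844), under total-count scaling (edgeR, 0.0516) or by limma on log2(FPKM + 1) (0.0727).

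The type IV collagen genes lie in head-to-head pairs, in which 2 genes are read in opposite directions from neighbouring start sites. The DNA between the starts is shown because the results below turn on whether the genes of a pair moved together. The stretches come from RefSeq promoter windows (GRCh38.p14, plus strand, 5′ to 3′). The windows reach from 250 bases before to 50 bases after a start, and each of the 9 genes has at least 1. For each gene of a pair the first listed window set the start. Where a gene has more than 1 window, distances from its other starts would differ. Between the starts of COL4A1 and COL4A2 lie 126 bases, all of which are shown (chr13:110307158-110307283). Between those of COL4A6 and COL4A5 lie 379 bases, of which the 121 shared by both upstream windows are shown (chrX:108439588-108439708). Between those of COL4A4 and COL4A3 lie 418 bases, and the shared part is 82 bases (chr2:227164374-227164455). Capitals mark CCAAT and GGGCGG, the letters of the CCAAT box and the GC box, on either strand.
COL4A1/COL4A2: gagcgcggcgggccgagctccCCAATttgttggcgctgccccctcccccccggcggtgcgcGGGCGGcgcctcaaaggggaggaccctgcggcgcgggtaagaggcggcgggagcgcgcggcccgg
COL4A6/COL4A5: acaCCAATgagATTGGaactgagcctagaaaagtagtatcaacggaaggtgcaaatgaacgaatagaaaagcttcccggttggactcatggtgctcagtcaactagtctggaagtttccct
COL4A4/COL4A3: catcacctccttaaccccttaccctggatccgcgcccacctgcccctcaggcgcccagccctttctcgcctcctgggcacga

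The stretches differ in composition. G and C make up 80.2% of the COL4A1/COL4A2 gap, 44.6% of the COL4A6/COL4A5 stretch and 67.1% of the COL4A4/COL4A3 stretch. CCAAT was found in 1, 2 and 0 places, and GGGCGG in 1, 0 and 0. These counts cover only the stretches shown, which are the whole gap for COL4A1/COL4A2 and a part of it for the other pairs. Outside those parts, GGGCGG also stood in a window of COL4A6 and in a window of COL4A3. In whole windows of 300 bases, CCAAT stood in 5 of the 12 windows of the 9 genes, against 34.6% of 35116 windows of all genes, and GGGCGG in 10 of the 12, against 45.0%. The 12 windows are not independent. The windows of COL4A1 and COL4A2 share bases, as do those of COL4A5 and COL4A6, so the same letters can count in more than 1 window. The letters ACAAAG or ACAATG, a core to which SOX proteins bind, were present on either strand in 1 of the 12, a window of LAMB3, against 24.5% of all windows. These matches are descriptions of the letters in these windows.

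Of the 9 genes 7 rose in shSOX4 and 0 fell (adjusted p under 0.05, edgeR's quasi-likelihood test with Benjamini-Hochberg adjustment over all features). Of all features 32.8% changed, 17.0% up and 15.8% down. At an unadjusted p under 0.05 LAMB3 was also lower and LAMC1 higher, and DESeq2 called both. The median log2 fold change of the 9 was 1.36, and that of all features was -0.01. The 3 shSOX4 libraries lay wholly above the 3 shCon libraries for 7 of the genes, against 23.1% of all features, and wholly below for LAMB3, against 23.9% (47.0% in either direction). Every feature of the deposited table reaches 1 CPM in at least 3 libraries. COL4A6 reached it in only 2 of the shCon libraries, so its place in the table rests on its shSOX4 values. Its place in the counts of genes up or wholly above, and in the median of the 9, therefore gives no support. In bulk RNA a change in every cell and a change in the share of cells that express a gene cannot be told apart.

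**Figure D1:**
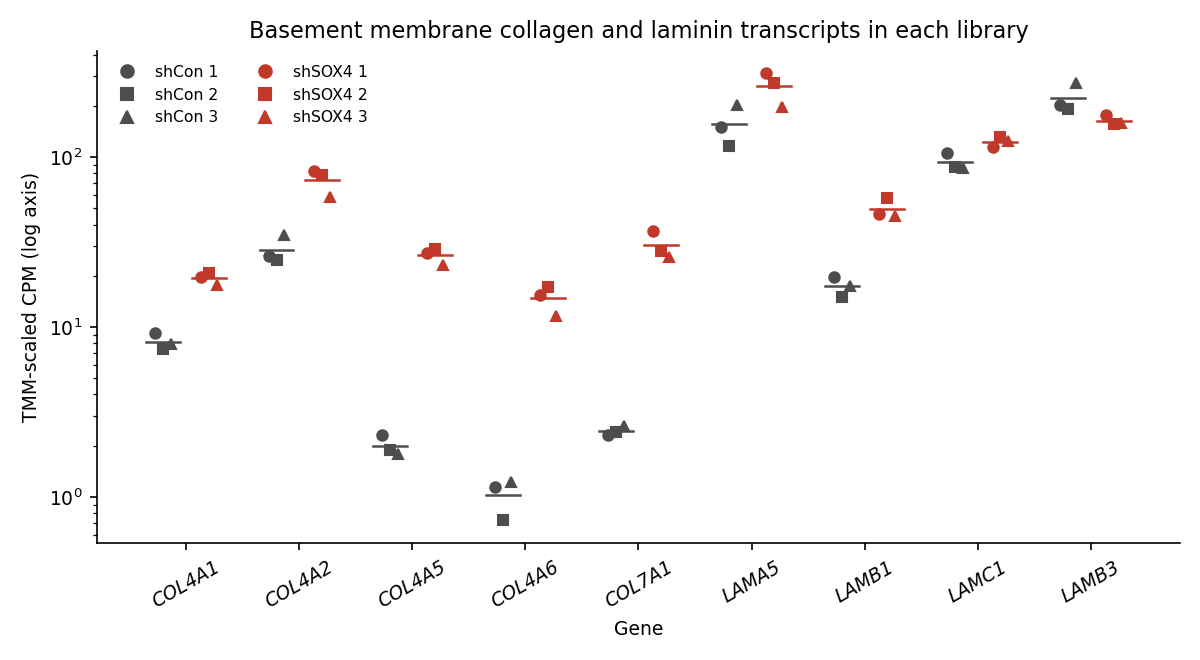
TMM-scaled CPM on a log axis for the 9 genes, with shCon in grey and shSOX4 in red, 1 marker shape for each replicate number and a line at the mean of 3 libraries. COL4A5, COL4A6 and COL7A1 go from 0.726 to 2.62 CPM in shCon libraries to 11.6 to 36.6 CPM in shSOX4 libraries, while the LAMA5 groups overlap and LAMB3 is the only gene with lower shSOX4 values.

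COL4A1 and COL4A2 on chromosome 13 encode the alpha chains of the type IV collagen found in nearly all basement membranes. COL4A1 (ENSG00000187498) had 9.16, 7.39 and 7.90 CPM in shCon 1, 2 and 3 and 19.8, 20.7 and 17.6 CPM in shSOX4 1, 2 and 3. The lowest shSOX4 library lay above the highest shCon library. It rose by 1.25 on the log2 scale (SE 0.196, 95% interval 0.83 to 1.66, adjusted p = 0.000401, edgeR), or 2.37-fold. COL4A2 (ENSG00000134871) had 26.2, 24.6 and 34.5 CPM in shCon and 82.8, 78.0 and 58.2 CPM in shSOX4. The groups did not overlap, with shSOX4 3 the lowest of its group. COL4A2 rose by 1.36 (SE 0.201, 95% interval 0.93 to 1.79, adjusted p = 0.000241, edgeR), or 2.57-fold.

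COL4A5 and COL4A6 on the X chromosome encode chains of a type IV collagen found in a narrower set of basement membranes, among them those of skin and smooth muscle. COL4A5 (ENSG00000188153) had 2.32, 1.88 and 1.78 CPM in shCon and 27.3, 28.9 and 23.2 CPM in shSOX4. COL4A6 (ENSG00000197565) had 1.14, 0.726 and 1.22 CPM in shCon, from 52, 27 and 42 counts, and 15.3, 17.2 and 11.6 CPM in shSOX4. For both genes every shSOX4 library was far above every shCon library. COL4A5 rose by 3.72 (SE 0.224, 95% interval 3.25 to 4.20, adjusted p = 6.48e-08, edgeR), or 13.2-fold. COL4A6 rose by 3.83 (SE 0.278, 95% interval 3.24 to 4.43, adjusted p = 3.29e-07, edgeR), or 14.2-fold. COL4A6 is in the table only with the help of its shSOX4 values, so its test and interval are a description and give no support.

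COL7A1 on chromosome 3 encodes the collagen of anchoring fibrils, which tie the epithelial basement membrane to the tissue below. COL7A1 (ENSG00000114270) had 2.30, 2.42 and 2.62 CPM in shCon and 36.6, 28.0 and 25.9 CPM in shSOX4. The shCon libraries lay close together, and shSOX4 1 was the highest of its group. It rose by 3.62 (SE 0.223, 95% interval 3.15 to 4.10, adjusted p = 8.02e-08, edgeR), or 12.3-fold. The sizes of the collagen changes depend on the scale for genes that are low in shCon. With limma on log2(FPKM + 1), which compresses low levels, the differences were 0.80 for COL4A1, 1.93 for COL4A5, 1.43 for COL4A6 and 1.72 for COL7A1, and all 4 remained called (limma, adjusted p from 7.83e-06 for COL4A5 to 0.0037 for COL4A1).

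Among the laminins, LAMA5 encodes the alpha chain that joins LAMB1 and LAMC1 in a laminin common in mature epithelia. LAMA5 (ENSG00000130702, chromosome 20) had 151, 117 and 203 CPM in shCon and 311, 274 and 195 CPM in shSOX4. The groups overlapped, since shSOX4 3 lay under shCon 3. It rose by 0.73 (SE 0.216, 95% interval 0.27 to 1.19, adjusted p = 0.0198, edgeR). The call was lost without shCon 2 (0.55, adjusted p = 0.0831, edgeR) and without shSOX4 2 (0.69, adjusted p = 0.0705, edgeR).

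LAMB1, a beta chain of many laminins, showed the clearest laminin rise of the 4 described. LAMB1 (ENSG00000091136, chromosome 7) had 19.8, 14.9 and 17.4 CPM in shCon and 45.9, 57.0 and 45.0 CPM in shSOX4, with no overlap. It rose by 1.50 (SE 0.191, 95% interval 1.10 to 1.91, adjusted p = 6.45e-05, edgeR), or 2.84-fold. LAMC1, the most widespread gamma chain (ENSG00000135862, chromosome 1), had 105, 87.5 and 86.0 CPM in shCon and 114, 131 and 123 CPM in shSOX4. The groups did not overlap, yet the log2 fold change of 0.40 did not pass (SE 0.160, 95% interval 0.06 to 0.74, adjusted p = 0.0671, edgeR). LAMC1 passed by DESeq2 (adjusted p = 0.0419), and in edgeR once shCon 3 and shSOX4 1 were both left out (0.40, adjusted p = 0.0288).

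LAMB3 encodes a beta chain that joins LAMA3 in the laminin that anchors epithelial cells at hemidesmosomes. LAMB3 (ENSG00000196878, chromosome 1) had 203, 193 and 274 CPM in shCon and 176, 157 and 158 CPM in shSOX4. Each shSOX4 library was under each shCon library, and shCon 3 was the highest. The log2 fold change of -0.45 did not pass (SE 0.170, 95% interval -0.81 to -0.08, adjusted p = 0.0567, edgeR). Leaving out shCon 3 gave -0.27 (edgeR, adjusted p = 0.183). LAMB3 passed by DESeq2 (adjusted p = 0.0485), under total-count scaling (adjusted p = 0.0321, edgeR), without newGene features (adjusted p = 0.0479, edgeR) and by limma on the log2(FPKM + 1) scale (adjusted p = 0.0486). In the authors' deposited table LAMC1 and LAMB3 stand just under the threshold, with a log2 fold change of 0.39 (authors' adjusted p = 0.0419) and -0.43 (authors' adjusted p = 0.0486). Both adjusted p-values are nearly those of the DESeq2 fit, from the same libraries, so they are not separate support.

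**Figure D2:**
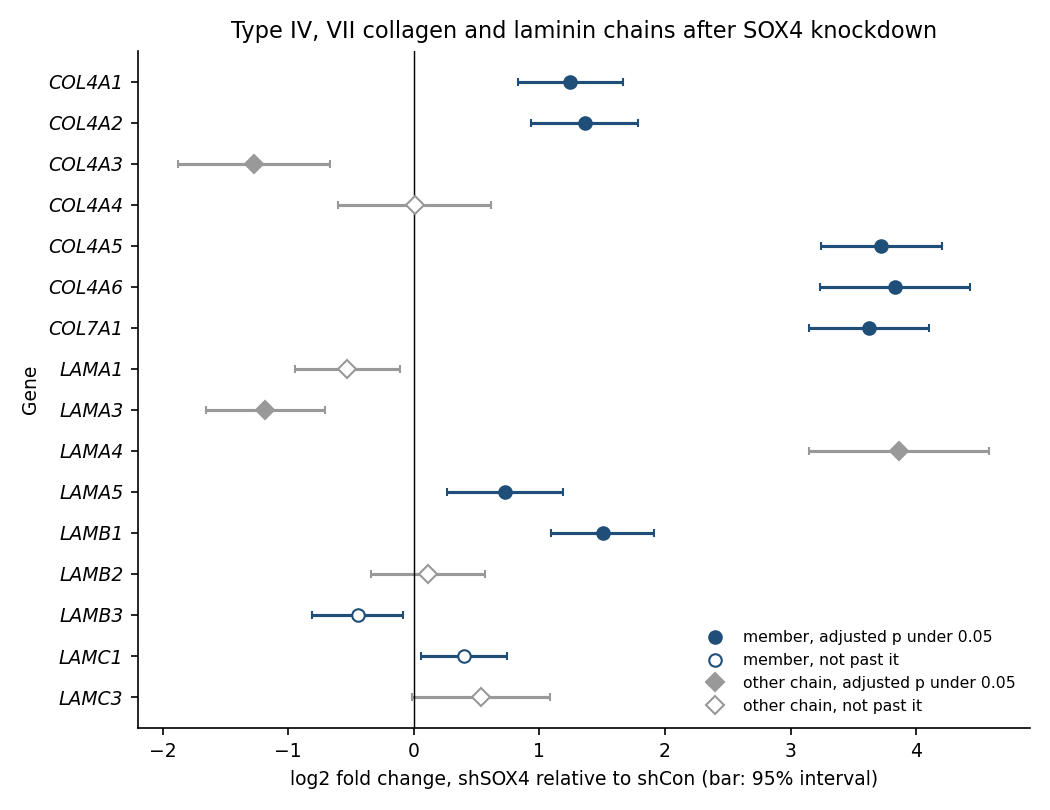
Log2 fold change of shSOX4 relative to shCon, with its 95% interval, for the 9 genes (blue circles) and other type IV collagen and laminin chains (grey diamonds). Filled symbols passed an adjusted p of 0.05 in edgeR: 7 of the 9 genes lie to the right of 0 and filled. Of the other chains LAMA4 (3.86) lies to the right and filled, and COL4A3 and LAMA3 lie to the left and filled.

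Other chains of the same families were also measured, and whether they differ from the 9 genes as a group was not tested. COL4A3, a chain of the collagen of kidney and lung basement membranes, had 5.15, 3.90 and 3.94 CPM in shCon and 1.70, 2.01 and 1.67 CPM in shSOX4. With no overlap between the groups, COL4A3 fell by 1.27 (log2, SE 0.282; edgeR, adjusted p = 0.00414). COL4A4, its head-to-head partner, had 2.92 to 3.41 CPM in shCon and 2.61 to 4.24 CPM in shSOX4, a log2 fold change of 0.01 (95% interval -0.60 to 0.62, adjusted p = 0.988, edgeR).

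Among other laminin chains, LAMA2 and LAMB4 were not analysed here. LAMA3, the alpha chain that joins LAMB3, fell. LAMA3 went from 24.1, 23.3 and 23.2 CPM to 11.8, 12.3 and 7.08 CPM, a fall by 1.18 (SE 0.222, adjusted p = 0.00141, edgeR). LAMA4, an alpha chain of vessel and muscle laminins, rose from 0.307, 0.537 and 0.408 CPM (14, 20 and 14 counts) to 7.22, 5.73 and 5.27 CPM, by 3.86 (log2, SE 0.336; edgeR, adjusted p = 1.85e-06). Its shCon levels are under 1 CPM, so it is in the table through its shSOX4 values. With limma on log2(FPKM + 1) LAMA4 and COL4A3 were not tested, since their mean FPKM is under 1.

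LAMA1, the alpha chain of embryonic laminin, had 13.3 to 17.1 CPM in shCon and 10.1 to 11.5 CPM in shSOX4, a value of -0.53 that did not pass (adjusted p = 0.051, edgeR; 0.0275 by DESeq2). LAMA1 passed in edgeR without shCon 3 (-0.62, adjusted p = 0.0282) and with shSOX4 1 left out as well (-0.59, adjusted p = 0.0161), and it also passed with RLE scaling (adjusted p = 0.0499, edgeR) and without newGene features (adjusted p = 0.0495, edgeR). LAMB2 had 64.4 to 104 CPM in shCon and 65.4 to 102 CPM in shSOX4, a value of 0.11 (edgeR, adjusted p = 0.715) that ranged from -0.04 without shCon 2 to 0.31 without shCon 3. LAMC3 had 4.57 to 8.98 CPM in shCon and 8.04 to 11.2 CPM in shSOX4, a value of 0.54 (edgeR, adjusted p = 0.121). LAMC3 was called up without shCon 3 (0.79; edgeR, adjusted p = 0.0299) and when shSOX4 1 was left out as well (0.69; edgeR, adjusted p = 0.0353). Without shCon 2 it was 0.32.

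Chains of the same assembly, and chains of different ones for contrast, were then set side by side as the log2 ratio of their counts within a library, which does not depend on how libraries are scaled. The groups were compared with a two-sided exact permutation test for 10 pairs, of which 9 are given here. With 3 libraries against 3 its smallest p is 0.1, or 0.167 after Benjamini-Hochberg adjustment over these pairs, so no pair could pass 0.05. The 6 pairs whose groups did not overlap stand at that smallest p.

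The COL4A1/COL4A2 ratio was -1.52, -1.73 and -2.13 in shCon and -2.07, -1.91 and -1.73 in shSOX4, a difference of -0.11 (exact permutation p = 0.8). The COL4A5/COL4A6 ratio was 1.02, 1.36 and 0.53 in shCon and 0.83, 0.75 and 1.00 in shSOX4, also a difference of -0.11 (exact permutation p = 0.7). COL4A6 is in the table through its shSOX4 values, which limits this comparison. In both head-to-head pairs the groups overlapped, and the difference was smaller than the SD of the shCon libraries, 0.31 and 0.41. Without shCon 1 the first difference was 0.03, and without shCon 2 the other was 0.08. By contrast the ratio of COL4A1 to COL4A5 was 1.97, 1.97 and 2.14 in shCon and -0.46, -0.48 and -0.40 in shSOX4, a difference of -2.48 that is far larger than the spread of either group.

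COL4A3 and COL4A4 were set side by side after their values had been seen, and so without a test. Their log2 ratio was 0.62, 0.19 and 0.43 in shCon and -0.61, -1.07 and -0.79 in shSOX4, so this head-to-head pair did not keep its ratio. The difference was -1.24.

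Among the laminins, LAMB1/LAMC1 went from -2.41, -2.55 and -2.30 to -1.31, -1.20 and -1.45, a difference of 1.10. LAMA5/LAMB1 differed by -0.77 and LAMB3/LAMB1 by -1.94, both without overlap. LAMA5/LAMC1 had overlapping groups and a difference of 0.33 (exact permutation p = 0.4). Within the hemidesmosomal laminin, LAMB3/LAMA3 differed by 0.79 without overlap. COL7A1 was set against COL17A1, the transmembrane collagen of hemidesmosomes. COL17A1 had 15.1 to 19.4 CPM in shCon and 10.0 to 13.7 CPM in shSOX4, a value of -0.51 that did not pass (adjusted p = 0.069, edgeR; 0.0461 by DESeq2), and -0.28 without both shCon 3 and shSOX4 1. The COL7A1/COL17A1 ratio went from -2.71, -2.72 and -2.88 to 1.87, 1.24 and 0.92, a difference of 4.11.

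**Figure D3:**
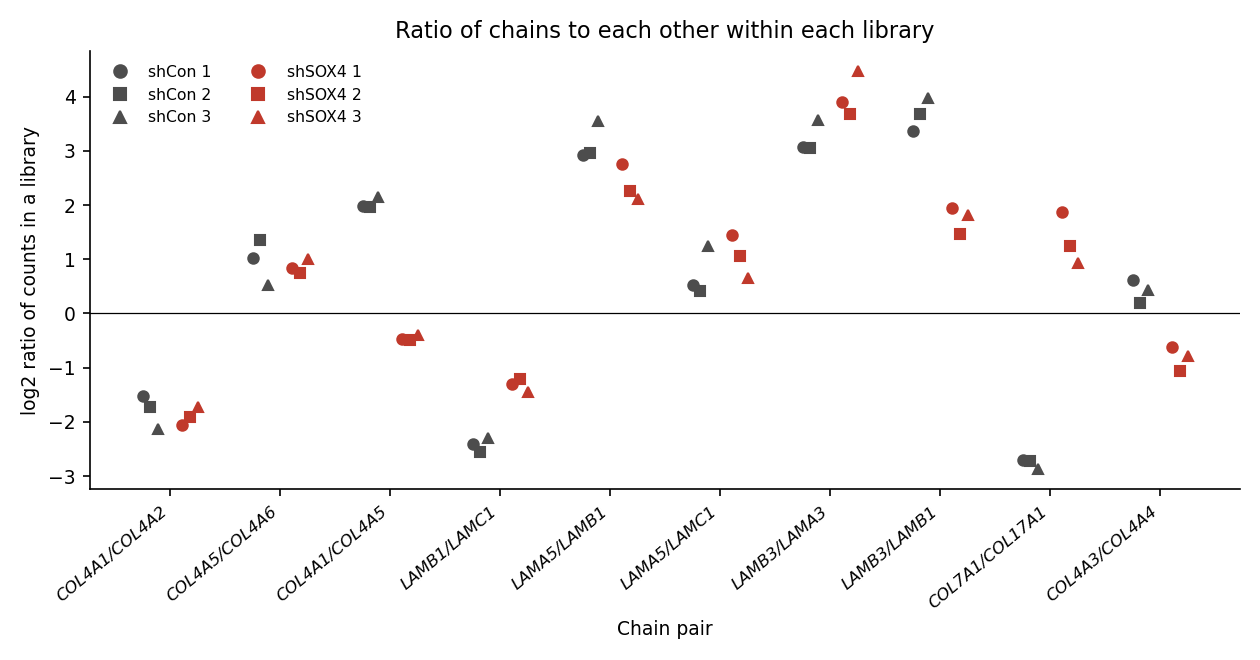
Log2 ratio of the counts of 2 chains in each library (shCon grey, shSOX4 red, marker shape by replicate number). The groups overlap for COL4A1/COL4A2 and COL4A5/COL4A6 and stand apart for COL4A1/COL4A5 and COL7A1/COL17A1; COL4A3/COL4A4, at the right, was added after its values had been seen.

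Levels of different genes were compared per length, with the authors' FPKM (fragments scaled to gene length and library size). In shCon the order of the mean FPKM was LAMB3 (50.7), LAMA5 (12.8), LAMC1 (11.0), COL4A2 (4.30), LAMB1 (2.86), COL4A1 (1.16), COL4A5 (0.286), COL7A1 (0.244) and COL4A6 (0.140). The ranges of LAMA5 and LAMC1 overlapped there, as did those of COL4A5 and COL7A1. In shSOX4 LAMB3 (37.9), LAMA5 (21.8) and LAMC1 (14.6) were still the highest, followed by COL4A2 (10.8) and LAMB1 (8.35). COL4A5 (3.92) and COL7A1 (3.14) then stood above COL4A1 (2.77) and COL4A6 (2.09). In shSOX4 LAMA5 overlapped with LAMC1, COL4A2 with LAMB1, and each of the last 4 with its neighbour.

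These levels give the make-up of each chain family, as shares of summed FPKM. COL4A5 and COL4A6 together held 7.24, 6.15 and 5.67% of the 6 type IV chains in shCon and 28.6, 30.7 and 30.9% in shSOX4. COL4A6 is in the table through its shSOX4 values, so its part of the larger share gives no support. COL4A1 and COL4A2 held 81.7% ± 2.63 (SD, n = 3) in shCon and 67.4% ± 1.67 (SD, n = 3) in shSOX4, with COL4A2 the larger part in every library. The share of COL4A3 and COL4A4 went from 11.9% ± 1.92 to 2.55% ± 0.455 (SD, n = 3 each).

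Among beta chains LAMB3 held 74.1, 77.3 and 75.6% in shCon and 62.1, 58.4 and 66.4% in shSOX4, and LAMB1 went from 4.30% ± 0.814 to 13.7% ± 1.55 (SD, n = 3 each). Among alpha chains LAMA5 went from 71.2% ± 6.30 to 86.5% ± 0.0702, and LAMA3 from 18.9% ± 5.47 to 4.57% ± 1.11 (SD, n = 3 each). The groups did not overlap for any of these shares. The authors' FPKM does not follow the counts for every chain: LAMA3 had 2.59, 3.90 and 3.45 FPKM in shCon, against 23.2 to 24.1 CPM. The alpha chain shares carry that difference. LAMB3 thus remained the most abundant beta chain in all 6 libraries.

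**Figure D4:**
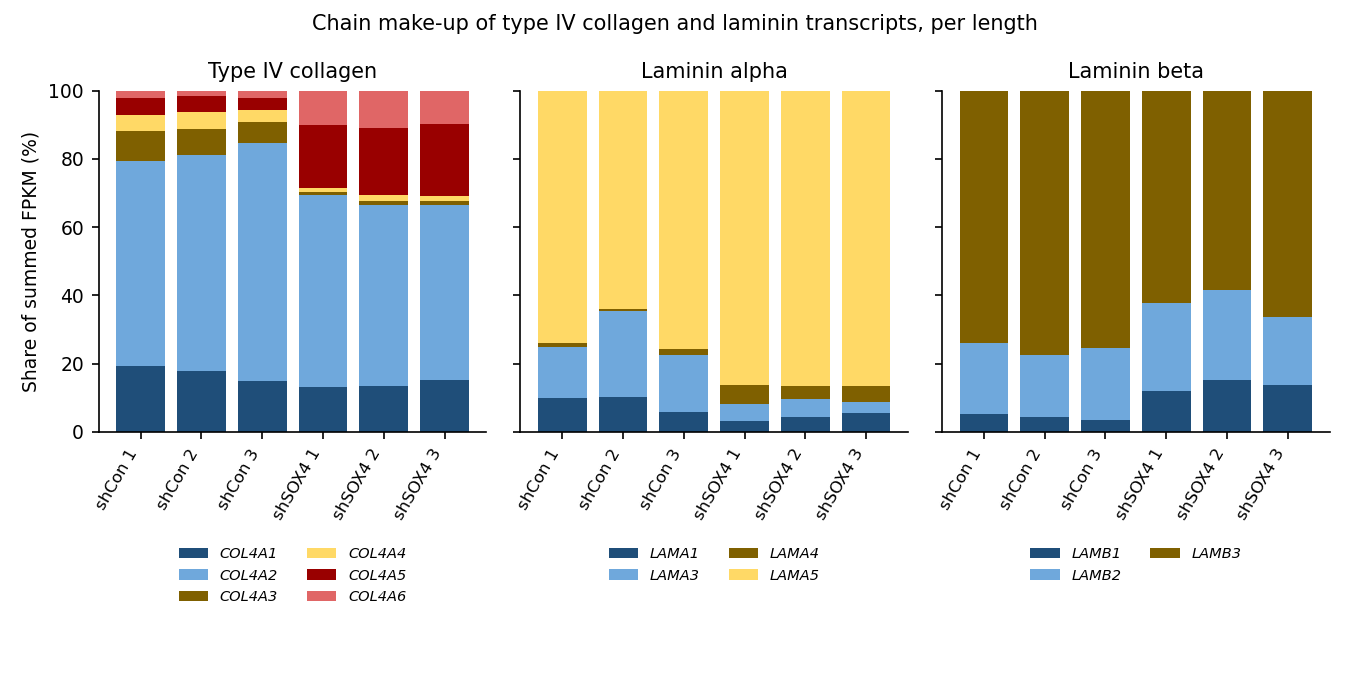
Share of summed FPKM, in percent, held by each chain of type IV collagen and of the laminin alpha and beta families, 1 bar for each library. COL4A5 and COL4A6 grow from 5.67 to 7.24% of type IV chains in shCon to 28.6 to 30.9% in shSOX4, and the LAMB1 share is larger in every shSOX4 library.

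The profile over the 6 libraries was compared with those of 9632 protein-coding genes averaging 5 CPM or more, by Pearson's r of log2 CPM. All these genes share the same libraries, and the groups lie far apart, so 5% of genes reach an r of 0.941 with COL4A1. The values are a description. The genes most like COL4A1 were RAB27A (r = 0.998), STAG2 (0.998) and SVEP1 (0.997), and its partner COL4A2 ranked 324 (0.958). For COL4A5 they were CPS1, PCDH1 and SH3PXD2A (each 0.999), with COL4A6 at rank 47 (0.992). For LAMB1 they were TROVE2 (0.998), MAPK6 (0.998) and ELK4 (0.996), with LAMC1 at rank 525 (0.935). For LAMB3 they were NRM (0.999), TKT (0.997) and CD81 (0.997).

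All 19 listed genes that fold, modify and cross-link collagen chains had a row. Of these 7 rose, 3 fell and 9 did not pass, beside 17.0% of all features up and 15.8% down, and the median was 0.10. PXDN, the peroxidasin that cross-links type IV collagen molecules, had 11.7, 8.95 and 10.6 CPM in shCon and 122, 116 and 98.0 CPM in shSOX4. It rose by 3.42 (SE 0.193, adjusted p = 3.6e-08, edgeR), with no overlap. P3H2, a prolyl 3-hydroxylase that acts on type IV collagen, went from 13.7, 10.5 and 10.0 CPM to 32.5, 27.1 and 30.7 CPM and rose by 1.40 (adjusted p = 0.000169, edgeR). PPIB, a prolyl isomerase of collagen folding, rose by 0.85, and PLOD2, a lysyl hydroxylase, by 0.72 (adjusted p = 0.0506 without shSOX4 2, edgeR). P3H3 fell by 1.26 and CRTAP, a partner of prolyl 3-hydroxylase in fibrillar collagens, by 0.67. The number up was 4 without shSOX4 2, a fit that called 2509 of all features, against 4431 in the main fit.

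Of 18 linkers and other basement membrane components 14 had a row, 5 rose, 3 fell and 6 did not pass, beside the same 17.0% up and 15.8% down over all features, and the median was 0.38. EGFLAM, which encodes pikachurin, a ligand of dystroglycan, had 1.29, 1.67 and 1.66 CPM in shCon and 18.8, 22.0 and 21.5 CPM in shSOX4. It rose by 3.76 (SE 0.230, adjusted p = 7.6e-08, edgeR). The others that rose were SMOC1 (2.19), FBLN1, a fibulin (1.86), NPNT, an integrin ligand (3.03), and COL15A1, a collagen of the basement membrane zone (2.69). NPNT is in the table only with the help of its shSOX4 values, so its place in the count up gives no support. With limma on log2(FPKM + 1) NPNT was 1.37 and COL15A1 1.38. TINAGL1 fell by 0.71, a call lost without shSOX4 2 (-0.64, adjusted p = 0.0624, edgeR). The number down was 1 without shCon 1, without shSOX4 2 or without shSOX4 3. These fits called 3673, 2509 and 2966 of all features, against 4431 in the main fit.

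Of 15 receptors for laminin and type IV collagen 14 had a row, 3 rose, 4 fell and 7 did not pass, beside 17.0% up and 15.8% down over all features, and the median was -0.31. DDR2, a receptor kinase for collagen, had 0.920, 0.806 and 1.17 CPM in shCon and 9.21, 10.4 and 9.50 CPM in shSOX4, and rose by 3.33 (SE 0.264, adjusted p = 7.42e-07, edgeR). ITGA1, the alpha subunit of a collagen-binding integrin, rose by 2.41 from 23, 5 and 38 counts in shCon. DAG1, dystroglycan, rose from 143, 144 and 179 CPM to 252, 256 and 224 CPM, by 0.65. Among subunits of laminin-binding integrins, ITGA6 and ITGA3 fell, while ITGB4 (0.56), ITGB1 (0.04) and ITGA7 (-0.32) did not pass (edgeR, adjusted p of 0.0672, 0.865 and 0.457). ITGA6 went from 28.1, 23.2 and 20.0 CPM to 10.4, 12.3 and 11.0 CPM, a fall by 1.08 (adjusted p = 0.00123, edgeR), and ITGA3 fell by 0.76. BCAM, a receptor for the LAMA5 chain, fell by 0.81, a call lost without shSOX4 3 (-0.65, adjusted p = 0.0611, edgeR). DDR2 and ITGA1 are in the table only with the help of their shSOX4 values, so the table's filter favoured a rise and their place in the count up gives no support. By limma on log2(FPKM + 1) the number of receptors up was 1, since DDR2 and ITGA1 have a mean FPKM under 1 and were not tested there.

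**Figure D5:**
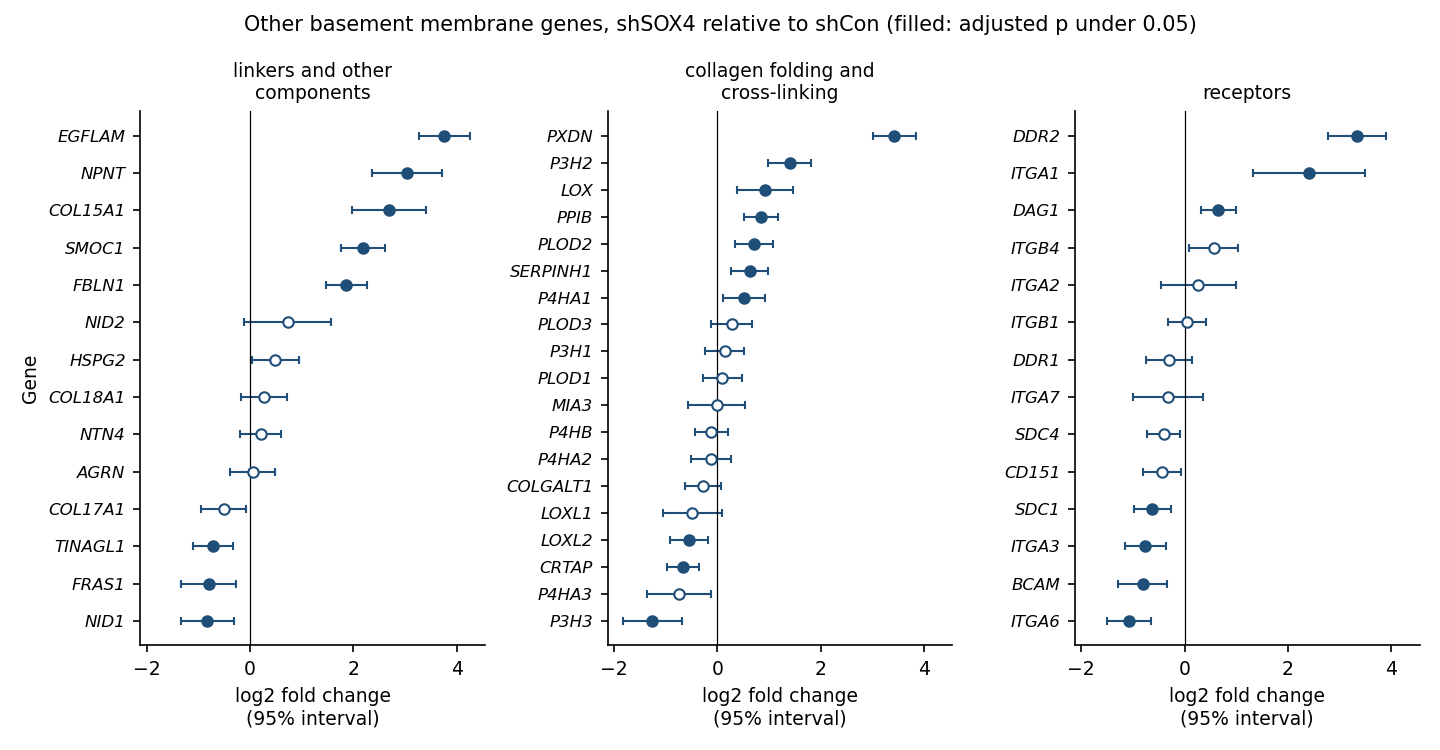
Log2 fold change with its 95% interval for 14 linkers and other components, 19 collagen folding and cross-linking genes and 14 receptors, filled where the adjusted p in edgeR was under 0.05. EGFLAM (3.76), PXDN (3.42) and DDR2 (3.33) top their panels, while P3H3 (-1.26) and ITGA6 (-1.08) are the lowest of theirs.

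Some markers of other cell types moved with the groups, those of fibroblasts and endothelium at low levels. Of 9 fibroblast markers 3 had a row (COL1A1, LUM and PDGFRB), and all 3 rose, beside 17.0% of all features up. Their summed level was 1.69 to 2.48 CPM in shCon and 9.55 to 16.0 CPM in shSOX4. LUM had 4, 6 and 0 counts in shCon. LUM, PDGFRB and CDH5 reach 1 CPM in too few shCon libraries to be in the table without their shSOX4 values. The filter thus fixed a rise of LUM and CDH5 and favoured one of PDGFRB. The counts and sums that hold these genes give no support. COL1A2, COL3A1, DCN, PDGFRA, THY1 and FAP were not analysed here. Of 7 endothelial markers only CDH5 had a row, with 0.525 to 0.942 CPM in shCon and 4.70 to 6.62 CPM in shSOX4. Of 6 leukocyte markers CD14 and CD68 had a row. CD68 was not low and fell by 1.17, from 109, 95.2 and 113 CPM in shCon to 52.1, 44.1 and 44.7 CPM in shSOX4. CD14 did not pass (edgeR, adjusted p = 0.449). The part of these genes' cell types in the results above was not tested. RefSeq places long non-coding genes, antisense ones among them, over COL4A1, COL4A2, COL4A6, LAMA5 and LAMC1, a miRNA gene over COL7A1 and LAMB3, and a pseudogene over LAMB1. Whether the counting used strand is not stated, so reads of these genes and of overlapping transcripts cannot be told apart.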

How the data were processed

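Values came from 1 deposited table of 6 RNA-seq libraries, with columns named NC and SH read as shCon and shSOX4. The counts were deposited as raw read counts for each gene, without normalization, per the file headers. FPKM values are scaled to gene length and library size by the authors, per the file headers. The table also holds the authors' adjusted p-value and log2 fold change, per the file headers. The submitters' processing notes name HISAT2 and STAR among their tools and the build hg19; no source used here names the counting program or the tool behind the authors' comparison. The table holds 13527 features, 1116 of them named newGene, each with a CPM of at least 1 in at least 3 libraries. Total counts were 31189910 to 43361609.

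All features were fitted with edgeR 4.0.16 in R 4.3.3 (TMM, filterByExpr, which left out 0 features, quasi-likelihood F test, two-sided, group only), called at a Benjamini-Hochberg adjusted p under 0.05. The fit was tested on simulated data. Ratios used counts plus 0.5. Log2 CPM used a prior count of 2. The alternatives were RLE and total-count scaling, 2 other filters, DESeq2 1.42.0, limma-voom, limma 3.58.1 on log2(FPKM + 1) for features averaging 1 FPKM or more, a replicate block, no newGene features, and fits without 1 or 2 libraries. Counts over the other gene lists under these settings were added after seeing the data.

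The 9 genes, the lists and the tests were chosen with earlier results of these data known. Named are the 9 genes, SOX4, the other measured type IV and laminin chains (1 gene is not reported here), the 6 genes with the smallest adjusted p of each related list, and called marker genes; KRT18, EPCAM, CDH1, CD14, COL17A1, ITGB4, ITGB1 and ITGA7 are named beside them, chosen after their values were seen. No label says that the libraries are separate cultures; the p-values then cover only how these libraries vary, and that variation may be technical. Libraries of a group differed by a chi-square of 28.8 to 139 per degree of freedom, far above sampling noise.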

Additional observations from a re-analysis of the deposited data

How the results depend on the processing

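Over the alternatives run, 6 to 8 of the 9 genes were called up. The features called ranged from 2509 to 5532, against 4431 in the main fit. The number of genes up was 8 by DESeq2 (5003 features called) and without both shCon 3 and shSOX4 1 (5532). It was 6 without shCon 2 (3443 features called) and without shSOX4 2 (2509). COL4A1, COL4A2, COL4A5, COL4A6, COL7A1 and LAMB1 were called up in each. COL4A6 is in the table through its shSOX4 values, so its calls give no support. With 1 library left out, the features called ranged from 2509 (without shSOX4 2) to 4966, LAMA5 from 0.55 to 0.96, the COL4A1/COL4A2 difference from -0.28 to 0.0272, the COL4A5/COL4A6 difference from -0.33 to 0.0836, COL4A4 from -0.23 to 0.15 and LAMB2 from -0.0390 to 0.31. LAMB3 was the 1 gene called down under total-count scaling (-0.44), DESeq2 (-0.44), limma on log2(FPKM + 1) (-0.41) and without newGene features (-0.46). LAMC1 became called by DESeq2 (0.41) and without both shCon 3 and shSOX4 1 (0.40). COL4A4, near 0, was -0.0272 by limma-voom, -0.0187 with the replicate block and -0.0031 without newGene features. The cause was not tested. The replicate number as a block gave 3374 features called and the same 7 genes up, and changed no call of a named gene. Same-numbered libraries did not deviate together (correlations of -0.29, 0.16 and -0.29), while shCon 3 and shSOX4 1 did (0.49). Deviations from a mean of 3 libraries depend on each other, so these values cannot settle whether the numbers pair the samples. At 27 to 106 counts in shCon, the sizes for COL4A5, COL4A6 and COL7A1 rest on few reads.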
